A study of Mus musculus with 17 samples.

Results

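The dorsal lineage of the postnatal subventricular zone was compared between 14 days and 8 hours after electroporation. The comparison used 4 dorsal samples of 14 days and 2 dorsal samples of 8 hours, chosen by their labels from the 17 dorsal samples of the series, which held 34 samples of both walls. Every sample came from CD1 mice in which progenitors lining 1 wall of the subventricular zone were electroporated in vivo, with P1 (postnatal day 1) given as the developmental stage, and held sorted GFP-positive cells. All groups thus shared the electroporation and the sort, and the labels name no promoter for the GFP and no pooling of animals. The labels describe the samples of a time point as biological replicates, without saying whether each was 1 animal or several, and p-values rest on the differences among them.

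The subventricular zone lines the lateral ventricles and keeps radial glia-like stem cells after birth. These stem cells give rise to dividing progenitors and then to neuroblasts, which migrate to the olfactory bulb and become mostly inhibitory (GABAergic) interneurons. The same zone makes astrocytes, oligodendrocytes and ependymal cells. The dorsal wall borders the corpus callosum, and its progenitors descend from the cortical (pallial) part of the embryonic forebrain. Interferons are secreted proteins that switch on antiviral genes through STAT and IRF factors, and neutrophils are white blood cells that enter injured tissue.

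Expression was measured as fluorescence on 2-colour Agilent arrays, on which the dorsal samples always carried Cy3. Levels below are normalized log2 intensities of the dorsal channel, on which values near 6 lie at the dim end. Changes are 14 days minus 8 hours on the log2 scale with the SE of the fit, so that a negative change means a lower level at 14 days. A gene is called where its adjusted p (limma, Benjamini-Hochberg over all genes tested) was under 0.05. The median signal before normalization was 30.3 to 68.5 at 14 days and 185 and 221 at 8 hours. The share of probes above background ran from 41 to 62.3% at 14 days, against 71.7 and 71.9% at 8 hours. The samples of 14 days correlated with each other at 0.636 to 0.818 across genes and the 2 samples of 8 hours at 0.98 (genes are not independent replicates). Replicate 2 of 14 days stood apart, with the lowest median signal and the lowest share of probes above background. Without it the range among the samples of 14 days was 0.737 to 0.818. The median SD over genes was 0.93 at 14 days (0.56 without replicate 2) and 0.17 at 8 hours.

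Of 26414 genes tested, 392 (1.48%) were called. They comprised 76 that rose (0.288%) and 316 that fell (1.2%) at 14 days, and 3365 genes had an unadjusted p under 0.05. Each list count below is to be read beside these shares. With only the 6 arrays of both times in the fit, 258 genes were called, of which 12 rose and 246 fell. Most calls of a rise thus depend on the spread pooled over all times of the series. Of the called rises named by rule, only Synpr and S100b kept the call in that fit. Without replicate 2 of 14 days 396 genes were called, of which 317 were also called with it. With 1 sample left at 8 hours the counts were lower, at 76 without replicate 1 and 117 without replicate 2, and without replicate 1 of 14 days the count was 607. Of the 50 genes named by rule and called, 32 lost the call without replicate 2 of 8 hours, and 36 of the 49 still measured lost it without replicate 1. Csta1, Cstdc4, Dct, Dysf, Nr2f2, Ptges, Retnlg, S100a9, S100b, Stfa1, Stfa2 and Tnfrsf12a stayed called in both of these fits. Of the 316 genes that fell, 113 were not well above background in any sample of 14 days, so that only a lower bound of their fold can be given. The median change over all tested genes was 0.14, and 56.8% of them changed upward. A list of 12 reference genes had 0 calls and a median change of -0.61, and 2 of the 12 changed upward. List medians of about that size are therefore not read as a change of a cell type. The samples of 14 days all lay on 1 slide that held no other time, so slide and time cannot be told apart for that group, but both groups were scanned on the same day.

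Part of the interferon response genes fell. Of 19 tested interferon response genes, 6 fell and 0 rose at 14 days (31.6%, against 1.2% of all tested genes), and their median change was -4.80. In 18 of the 19 every dorsal sample of 14 days lay below both samples of 8 hours, which was so for 11.7% of all tested genes. The exception was Ifi27, at -0.74. Leaving out a sample changed the count to 4 without replicate 2 of 14 days, 1 without replicate 1 of 8 hours and 0 without replicate 2 of 8 hours, while the median change was -4.70, -4.61 and -4.87 in these fits.

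Irf7, the transcription factor that amplifies type I interferon production, measured 7.29, 7.01, 6.72 and 7.11 at 14 days against 14.64 and 15.57 at 8 hours. The 4 samples of 14 days lay within 1 log2 unit of each other and far below both samples of 8 hours. The change was -8.07 ± 1.12, or 269-fold lower (adjusted p = 0.00214, limma). Mx2, an antiviral GTPase, measured 10.21, 8.86, 12.001 and 7.31 at 14 days against 15.05 and 15.12 at 8 hours, a change of -5.49 ± 1.16 (adjusted p = 0.0303, limma). Ifi44, an interferon-induced protein, measured 8.10, 8.67, 12.22 and 7.74 at 14 days against 15.05 and 14.996 at 8 hours, a change of -5.85 ± 1.03 (adjusted p = 0.0116, limma). In both of these genes replicate 3 of 14 days was the highest of its group and still below the samples of 8 hours. Cxcl10, a chemokine that attracts T cells, measured 7.14, 6.26, 12.78 and 6.47 at 14 days against 17.81 in the 1 sample of 8 hours with an unflagged spot. It was well above background in 1 of the 4 samples of 14 days. It fell by 9.64 ± 1.95 (adjusted p = 0.0283, limma), and it was not called without replicate 2 (adjusted p = 0.0505, limma) or replicate 4 of 14 days (adjusted p = 0.0522, limma) or without replicate 2 of 8 hours. Mx2 was likewise not called without replicate 2 (-5.25, adjusted p = 0.0666, limma) or replicate 4 of 14 days (-4.73, adjusted p = 0.0522, limma). Mx1 (-4.80) and Ifit2 (-5.28), which block viral replication and translation, also fell. Ifit1 (-6.74), Usp18 (-7.02), Rsad2 (-5.54) and Isg15 (-4.07) did not pass the test.

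The guanylate-binding proteins are GTPases induced by interferon that attack intracellular microbes. This family and the other symbol families below were listed after values had been seen, by the start of the gene symbol. Of 9 tested members 6 fell and 0 rose (66.7%, against 1.2% of all tested genes), with a median change of -5.04. Gbp2 measured 7.45, 9.50, 11.44 and 8.00 at 14 days against 15.26 and 15.43 at 8 hours (-6.24 ± 1.05, adjusted p = 0.00893, limma). Gbp5, which promotes inflammasome assembly, measured 8.86, 7.95, 6.80 and 7.93 at 14 days against 12.70 and 13.54 at 8 hours (-5.24 ± 0.59, adjusted p = 0.00053, limma). Their near-identical copies can share hybridization to a probe, so members of this family are uncertain one by one. Of 15 antigen presentation genes 2 fell and 0 rose (13.3%, against 1.2% of all tested genes), with a list median of -2.19. Tap1, a subunit of the peptide transporter of the endoplasmic reticulum, measured 7.11, 6.24, 6.54 and 6.33 at 14 days, not well above background, against 12.54 and 12.89 at 8 hours, at least 70.9-fold lower (adjusted p = 0.0063, limma). Psmb8, a subunit of the immunoproteasome, measured 11.98, 7.49, 9.58 and 8.86 at 14 days against 15.86 and 16.12 at 8 hours (-6.51 ± 1.29, adjusted p = 0.0232, limma, and 0.0515 without replicate 4 of 14 days). The class I heavy chains H2-K1 (-1.34) and H2-D1 (-2.33) and their light chain B2m (-0.40) did not pass the test.

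The promoters of these genes are shown because many of them moved together and because interferon-responsive promoters are known to carry a response element made of GAAA repeats bound by STAT and IRF factors. The 250 bases before each annotated start, from RefSeq on GRCm38.p6, were searched for GAAA, 2 bases of any kind and GAAA again (GAAANNGAAA) on both strands. Overlapping matches were counted separately, and capitals mark the match, which reads as TTTCNNTTTC where it lies on the opposite strand. Each window ends 1 base before the start. The Cxcl10 window is chr5:92348890-92349139 on the minus strand. The Gbp windows, on the plus strand, are chr3:142620413-142620662 (Gbp2), chr3:142559794-142560043 (Gbp3, with 2 overlapping matches) and chr3:142496684-142496933 (Gbp5).
Cxcl10: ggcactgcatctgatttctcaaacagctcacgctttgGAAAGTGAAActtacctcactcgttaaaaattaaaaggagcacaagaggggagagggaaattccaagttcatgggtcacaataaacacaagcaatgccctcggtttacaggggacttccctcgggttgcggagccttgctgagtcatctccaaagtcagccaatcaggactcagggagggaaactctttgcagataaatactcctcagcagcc
Gbp2: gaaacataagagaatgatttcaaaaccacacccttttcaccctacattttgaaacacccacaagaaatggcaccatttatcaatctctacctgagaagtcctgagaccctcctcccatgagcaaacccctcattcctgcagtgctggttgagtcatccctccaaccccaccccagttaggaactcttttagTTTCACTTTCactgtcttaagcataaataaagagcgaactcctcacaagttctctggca
Gbp3: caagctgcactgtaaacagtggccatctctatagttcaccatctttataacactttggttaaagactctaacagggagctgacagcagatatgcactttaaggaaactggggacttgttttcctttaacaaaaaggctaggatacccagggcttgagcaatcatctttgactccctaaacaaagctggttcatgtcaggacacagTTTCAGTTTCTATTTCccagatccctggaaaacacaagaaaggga
Gbp5: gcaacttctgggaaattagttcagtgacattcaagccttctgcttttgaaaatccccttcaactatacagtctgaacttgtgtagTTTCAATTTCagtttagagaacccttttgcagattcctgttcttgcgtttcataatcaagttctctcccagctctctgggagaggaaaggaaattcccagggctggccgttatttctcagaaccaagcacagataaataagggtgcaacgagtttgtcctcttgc
The element was found in 3.34% of the 14373 tested genes with a window in the table (480 genes) and in 11.7% of the 205 matched genes that fell (24 genes). It was found in 0 of 50 matched genes that rose. Among interferon response genes 14 of 19 matched and 8 of them held it (57.1%). Of the 4 matched interferon response genes that fell, 1 held it, Cxcl10 (25%), and the other holders, Isg15, Ifit1, Ifit3, Oas1a, Rsad2, Stat2 and Bst2, were not called. All 5 matched Gbp genes held it. Among them Gbp2, Gbp2b, Gbp3 and Gbp5 lie near each other on chromosome 3, and members of the family share sequence. None of the 10 matched stefin genes and none of the 10 matched neutrophil genes described next held it. A match is a description of these letters only, and the values say nothing on which factor was bound.

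Some neutrophil genes fell as well, where 1.2% of all tested genes fell. Of 10 tested neutrophil genes 5 fell and 0 rose at 14 days (50%, median change -1.76, 4 of 10 changed upward), and 5 fell also without replicate 2 of 14 days, against 2 without replicate 1 of 8 hours and 3 without replicate 2 of 8 hours. The summed linear level of the list, here and below without flagged spots, ran from 1431 to 6331 at 14 days against 55831 and 71607 at 8 hours. S100a8 and S100a9 form calprotectin, a protein that binds metal ions and makes up much of the neutrophil cytosol. S100a9 measured 6.49, 6.50, 6.52 and 6.70 at 14 days against 14.37 and 14.72 at 8 hours. S100a8 measured 6.20, 6.03, 6.00 and 5.96 at 14 days against 13.74 and 14.07 at 8 hours. Neither was well above background in any sample of 14 days, and they were at least 254-fold (adjusted p = 0.00122, limma) and at least 213-fold lower (adjusted p = 0.00654, limma). Lcn2, which binds bacterial siderophores and is also made by reactive astrocytes, was at least 174-fold lower, with 6.36, 6.23, 6.28 and 6.25 at 14 days against 13.40 and 14.08 at 8 hours (adjusted p = 0.00432, limma). Retnlg, a resistin-like protein of granulocytes, fell by 5.96 ± 0.33 (adjusted p = 1.57e-06, limma), and Ngp, a neutrophil granule protein, fell by 2.24 ± 0.50. The azurophil granule genes Mpo (1.00) and Elane (1.12), the granule gene Ltf (0.00) and the chemokine receptor gene Cxcr2 (1.82) did not pass the test. The levels of these genes cannot tell fewer cells of a type from less RNA per cell, here and in every result below.

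The stefins of mouse chromosome 16 inhibit cysteine proteases, and several are abundant in neutrophils. Of 10 tested members 8 fell and 0 rose (80%, against 1.2% of all tested genes), with a median change of -7.04. Csta1 measured 6.50, 6.89, 6.78 and 6.32 at 14 days against 14.29 and 14.81 at 8 hours. Stfa2 measured 6.21, 6.16, 6.39 and 6.16 at 14 days against 13.93 and 14.58 at 8 hours. Cstdc4 measured 6.42, 6.11, 6.24 and 6.49 at 14 days against 13.90 and 14.06 at 8 hours. All 3 were not well above background in any sample of 14 days and were at least 243-fold (Csta1), 255-fold (Stfa2) and 196-fold lower (Cstdc4), with adjusted p-values of 1.87e-06, 0.002 and 1e-07 (limma). Stfa1 fell by 7.59 ± 0.54 (adjusted p = 5.74e-06, limma). Near-identical copies make up this family, so 1 abundant transcript could register on several probes. The count of stefins that fell was 9 without replicate 2 of 8 hours and 8 without any other 1 of the 6 samples.

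Some cytokine and chemokine genes fell as part of larger families of which most members were not called. Of 51 tested chemokine and chemokine receptor genes 10 fell and 0 rose (19.6%, against 1.2% of all tested genes), with a median change of -0.83. Ccl4, which attracts monocytes and T cells, measured 6.27, 7.16 and 7.89 in the 3 samples of 14 days with an unflagged spot against 14.81 and 14.22 at 8 hours (-7.40 ± 0.86, adjusted p = 0.00092, limma). Cxcl11 measured 6.46, 7.24, 7.51 and 6.08 at 14 days against 13.97 and 13.30 at 8 hours (-6.81 ± 0.47, adjusted p = 5.17e-06, limma). Of 77 interleukin and interleukin receptor genes 6 fell and 0 rose (7.79%, against 1.2% of all tested genes). Of these 6, 4 were from the interleukin 1 system. Il1rn, the secreted antagonist of that system, measured 6.08, 6.11, 6.21 and 6.08 at 14 days against 14.80 and 13.47 at 8 hours, at least 246-fold lower (adjusted p = 0.00266, limma). The agonist gene Il1a (-5.07), the signalling receptor gene Il1r1 (-5.15) and the decoy receptor gene Il1r2 (at least 37.2-fold lower) fell as well.

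Further genes named for the size of their fall were Tgm1, Ptges and Tnfrsf12a. Tgm1, the transglutaminase that crosslinks the envelope of skin keratinocytes, measured 6.61, 7.36, 6.37 and 6.47 at 14 days against 15.42 and 15.19 at 8 hours. It was at least 388-fold lower (adjusted p = 0.00772, limma). Ptges, the enzyme that makes prostaglandin E2, measured 7.69, 8.19, 9.11 and 7.19 at 14 days against 15.44 and 16.07 at 8 hours (-7.71 ± 0.75, adjusted p = 0.000175, limma). Tnfrsf12a, the receptor of the injury cytokine TWEAK, measured 8.72, 9.65, 8.92 and 8.20 at 14 days against 16.33 and 16.37 at 8 hours (-7.48 ± 0.90, adjusted p = 0.000882, limma). All 3 genes were chosen for large falls past the threshold with groups that did not overlap, so a wide gap between the groups follows from the choice. Timp1, an inhibitor of matrix metalloproteases, fell by 5.08 ± 0.56. Of stress genes, Gadd45b, which responds to DNA damage and takes part in demethylation, fell by 4.95 ± 0.92 and Srxn1, which repairs oxidized peroxiredoxins, by 4.55 ± 0.90, out of 15 tested heat shock and stress genes with a median change of 0.02.

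**Figure D1:**
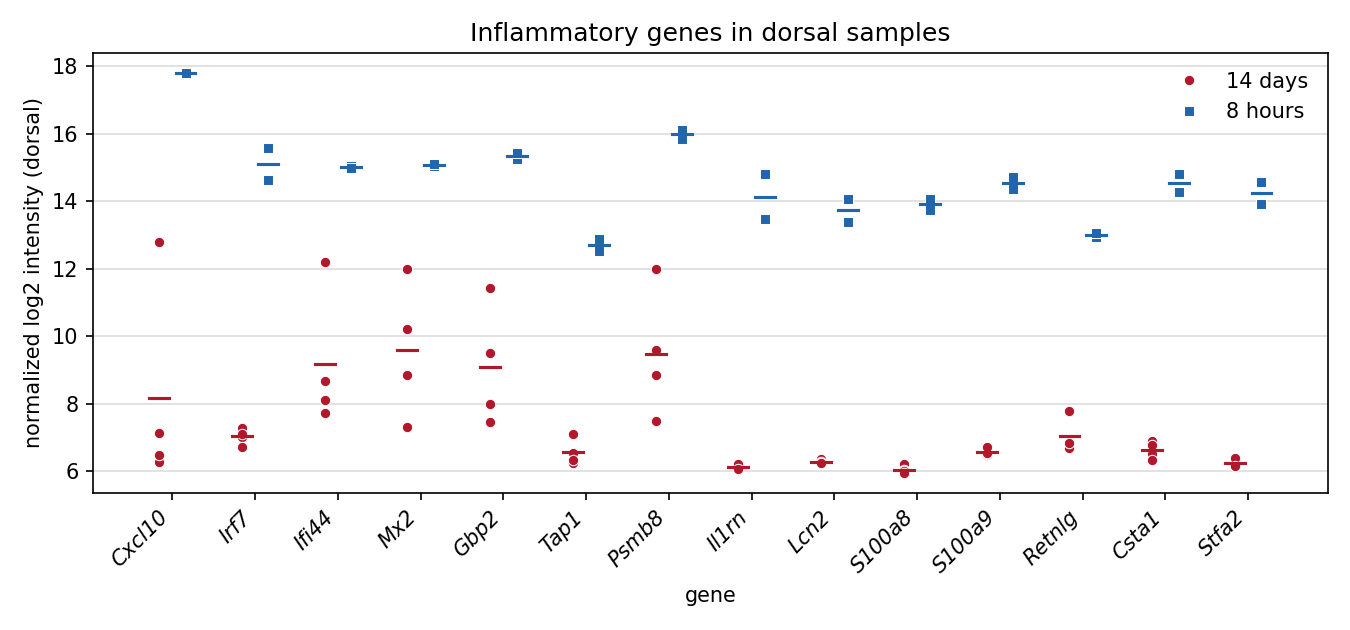
Normalized log2 intensity of 14 genes that fell, in each dorsal sample (red circles, 4 samples of 14 days; blue squares, 2 samples of 8 hours, but 1 for Cxcl10; bars, group means). The samples of 14 days lie below those of 8 hours in every gene shown, as in all 316 genes called lower. The interferon response genes Cxcl10, Ifi44 and Mx2 spread more within 14 days than S100a8, S100a9 and Lcn2.

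Markers of other cells were set beside these falls. The microglia and macrophage list had 0 of 17 genes called in either direction, with a median change of -2.23 and a summed level of 17003 to 560737 at 14 days against 263278 and 263672 at 8 hours, ranges that overlapped. Cx3cr1, a receptor that marks microglia, measured 14.03, 10.98, 10.92 and 8.30 at 14 days against 11.68 and 10.64 at 8 hours, and its change of -0.10 ± 1.22 did not pass the test (adjusted p = 0.978, limma). Of 7 erythroid genes 2 fell, among them Slc4a1, the anion exchanger of the red cell membrane (-2.70 ± 0.40). Hbb-bt, a beta globin, was at 18.77 in the 1 sample of 14 days with an unflagged spot against 19.14 and 18.47 at 8 hours. That sample was replicate 2, which stood apart. Hbb-bt was well above background in all 4 samples of 14 days, but its level in that group rests on replicate 2 alone. In the endothelial and mural list 1 of 15 genes was called, Vtn, which rose. Cldn5, a tight junction protein of brain endothelium, measured 7.69, 11.04, 13.39 and 13.71 at 14 days against 7.11 and 7.19 at 8 hours, and did not pass the test (4.31 ± 2.04, adjusted p = 0.4, limma). The part of these other cells in the falls of inflammatory genes was not tested.

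Genes of radial glia fell in part, where 1.2% of all tested genes fell and the reference genes had a median change of -0.61. Of 21 tested genes 3 fell and 0 rose (14.3%), with a median change of -0.65, and 3 fell also without replicate 2 of 14 days, against 0 without either sample of 8 hours. Tnc, a matrix glycoprotein of stem cell niches, measured 11.83, 9.98, 9.80 and 13.13 at 14 days against 15.77 and 15.41 at 8 hours (-4.40 ± 0.78, adjusted p = 0.0117, limma). Vim, the intermediate filament of radial glia and reactive astrocytes, measured 14.93, 15.38 and 14.59 in 3 samples of 14 days against 17.37 and 17.41 at 8 hours, 5.37-fold lower (adjusted p = 0.00893, limma). Hes1, a repressor of neurogenesis downstream of Notch, measured 6.59, 6.46, 6.19 and 6.41 at 14 days, not well above background, against 9.35 and 8.73 at 8 hours, at least 6.2-fold lower (adjusted p = 0.00893, limma). The stem cell transcription factors Sox2 (1.02), Sox9 (-1.98) and Pax6 (-0.31) and the glutamate transporter gene Slc1a3 (0.43) did not pass the test. Nes, the filament nestin of neural progenitors, was lower in every sample of 14 days (7.85, 10.34, 11.95 and 10.54) than in those of 8 hours (13.13 and 13.31), and did not pass the test (-3.04 ± 0.89, adjusted p = 0.137, limma). Fabp7, the fatty acid binding protein of radial glia, was at 17.45 in the 1 sample of 14 days with an unflagged spot against 18.16 and 17.87 at 8 hours. The summed linear level of the list ran from 233185 to 418143 at 14 days against 840955 and 912590 at 8 hours. Flagged spots added nothing to these sums. Fabp7 entered the sum of 1 sample of 14 days and Vim of 3, against 2 of 8 hours for both. The sums therefore cannot be compared between the groups.

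Proliferation genes were not called in either direction. In the mitosis list 0 of 25 genes and in the DNA replication list 0 of 24 genes passed the test, with medians of -1.19 and -1.02. Mki67, a nuclear protein of dividing cells, measured 9.59, 6.19, 11.69 and 7.33 at 14 days against 11.57 and 12.29 at 8 hours (-3.23 ± 1.16, adjusted p = 0.258, limma). The highest sample of 14 days overlapped the samples of 8 hours. Of 10 cyclin D and CDK inhibitor genes 1 fell, Cdkn2b, an inhibitor of CDK4 and CDK6, at -4.70 ± 0.89 (adjusted p = 0.0178, limma). Ependymal genes had 0 of 19 calls with a median of -1.73. Foxj1, the master factor of motile cilia, measured 10.20, 8.48 and 13.17 in 3 samples of 14 days against 14.82 and 15.04 at 8 hours and did not pass the test (-4.31 ± 1.87, adjusted p = 0.37, limma).

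Gad1, Synpr and Nxph1 were the GABAergic and olfactory interneuron genes that rose at 14 days. Of 18 tested GABAergic and olfactory interneuron genes 3 rose and 0 fell (16.7%, against 0.288% of all tested genes), with a median change of 2.27, and 17 of 18 changed upward. In 11 of the 18 every sample of 14 days lay above both samples of 8 hours, which was so for 22.7% of all tested genes. The count was 4 without replicate 2 of 14 days, 0 without replicate 1 of 8 hours and 1 without replicate 2 of 8 hours. Gad1, the enzyme that makes GABA, measured 13.12, 13.02, 11.36 and 13.65 at 14 days against 6.81 and 8.14 at 8 hours (5.31 ± 0.85, 39.8-fold higher, adjusted p = 0.00621, limma). Synpr, a synaptic vesicle protein, measured 14.67, 13.94, 13.30 and 15.42 at 14 days against 9.09 and 9.18 at 8 hours (5.19 ± 0.76, adjusted p = 0.00348, limma). Nxph1, a secreted ligand of neurexins, measured 11.40, 10.10, 10.80 and 13.67 at 14 days against 6.14 and 6.39 at 8 hours, where it was not well above background, at least 36.4-fold higher (adjusted p = 0.0233, limma). In all 3 genes the groups did not overlap, which held for all 76 genes called higher and so adds nothing to the call. Gad2 (3.86), Tshz1 (2.05), Etv1 (2.02), Slc32a1 (2.26) and the subtype markers Calb2 (2.27) and Calb1 (1.01) did not pass the test. Th, the rate-limiting enzyme of dopamine synthesis, measured 6.93, 10.46, 8.24 and 13.28 at 14 days against 6.42 and 7.11 at 8 hours, and did not pass the test (2.96 ± 1.46, adjusted p = 0.413, limma).

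Dlx2, Dlx5 and Sp8, transcription factors of these neurons, rose too. Of 17 subpallial factors 3 rose and 0 fell (17.6%, against 0.288% of all tested genes, median change 0.74). The 3 that rose are all also expressed in olfactory bulb interneuron precursors. Dlx2, a homeobox factor that drives GABAergic fate, measured 11.30, 13.56, 11.22 and 13.07 at 14 days against 6.76 and 7.35 at 8 hours (5.23 ± 0.71, 37.6-fold higher, adjusted p = 0.002, limma). Dlx5 measured 12.35, 11.04, 12.66 and 13.05 at 14 days against 7.52 and 8.58 at 8 hours (4.23 ± 0.54, adjusted p = 0.00128, limma). Sp8, a zinc finger factor of migrating neuroblasts and of calretinin interneurons, measured 12.04, 11.56, 10.39 and 12.19 at 14 days against 7.24 and 7.92 at 8 hours (3.96 ± 0.75, adjusted p = 0.0165, limma). None of the 3 overlapped between the groups, as held for all 76 genes called higher. Dlx1 changed by 3.76 and Dlx6 by 0.26, and neither passed the test. In the transit amplifying list 1 of 14 genes rose, Sox4, a factor of early neuronal differentiation (2.03 ± 0.43, adjusted p = 0.0299, limma, and 0.0659 without replicate 4 of 14 days). In the neuroblast list Sp8 was the 1 gene of 18 that rose, and the list median was 1.499. Dcx, the microtubule protein of migrating neuroblasts, measured 13.17, 13.26 and 15.54 in 3 samples of 14 days against 11.37 and 10.98 at 8 hours and did not pass the test (2.82 ± 1.23, adjusted p = 0.37, limma). Factors of pallial origin had 0 of 15 calls and glutamatergic neuron genes 0 of 12. Their medians were -0.58 and -0.82, against -0.61 for the reference genes.

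Genes of the synapse rose in smaller number. Of 24 mature neuron and synapse genes 2 rose and 0 fell (8.33%, against 0.288% of all tested genes), with a median change of 1.49. Gria1, a subunit of AMPA glutamate receptors, measured 12.10, 15.03, 11.38 and 14.30 at 14 days against 8.20 and 6.71 at 8 hours (5.74 ± 1.21, 53.6-fold higher, adjusted p = 0.0301, limma). Snap25, a protein of vesicle fusion, measured 13.05 and 13.12 in the 2 samples of 14 days with an unflagged spot against 8.67 and 7.97 at 8 hours (4.76 ± 0.73, adjusted p = 0.00873, limma). Gria1 was not called without replicate 2 (5.14, adjusted p = 0.0617, limma) or replicate 4 of 14 days (5.38, adjusted p = 0.0661, limma), or without either sample of 8 hours. Rbfox3, the neuronal nuclear antigen NeuN, measured 11.92, 11.55, 12.26 and 13.45 at 14 days, above 10.02 and 10.62 at 8 hours, and did not pass the test (1.97 ± 0.60, adjusted p = 0.163, limma). The neuronal RNA-binding genes Elavl3 (2.96 ± 0.62) and Celf4 (2.91 ± 0.66) rose among 22 RNA-binding and splicing genes. St8sia3, a sialyltransferase of the brain, rose by 5.13 ± 1.10. Leaving out 1 sample of 14 days ended the call of Elavl3 (replicate 2, 3 or 4, adjusted p = 0.0517 to 0.061, limma), Celf4 (replicate 2 or 4, 0.0931 and 0.0934) and St8sia3 (replicate 3 or 4, 0.0577 and 0.0676). All 16 tested GABA-A receptor subunit genes changed upward and in 11 of them every sample of 14 days lay above both samples of 8 hours, as in 22.7% of all tested genes. Their median was 1.28, and 0 of them passed the test.

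Erbb3, of the oligodendrocyte lineage, and some astrocyte genes rose too. In the oligodendrocyte lineage list 19 of 19 genes changed upward with a median of 2.83, and in 10 of them every sample of 14 days lay above both samples of 8 hours, as in 22.7% of all tested genes, but 1 passed the test. The list's summed level ran from 169610 to 347161 at 14 days against 18666 and 19174 at 8 hours. Pdgfra, the growth factor receptor of oligodendrocyte precursors, measured 14.04, 9.996, 7.37 and 13.96 at 14 days against 8.82 and 6.53 at 8 hours and did not pass the test (3.67 ± 1.79, adjusted p = 0.41, limma). Sox10 (5.27), the identity factor of the lineage, Gpr17 (6.27) and Mbp (0.10) did not pass it either. Erbb3, a neuregulin receptor of the oligodendrocyte lineage, rose by size alone outside the list, at 14.72, 10.81, 14.58 and 11.59 at 14 days against 7.41 and 6.69 at 8 hours (5.88 ± 0.89, adjusted p = 0.00437, limma).

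The astrocyte list was split, with 2 of 23 genes higher (8.7%, against 0.288% of all tested genes), 1 lower (4.35%, against 1.2%) and a median of -0.09. Gjb6, the gap junction protein connexin 30 of mature astrocytes, measured 12.31, 15.99, 12.20 and 13.67 at 14 days against 6.83 and 6.16 at 8 hours (7.05 ± 1.33, 132-fold higher, adjusted p = 0.0165, limma). S100b, a calcium-binding protein of astrocytes and of oligodendrocyte precursors, measured 15.65, 16.92 and 15.67 in 3 samples of 14 days against 9.78 and 9.78 at 8 hours (6.30 ± 0.83, adjusted p = 0.00201, limma). F3, the coagulation tissue factor, which cultured astrocytes and injured tissue also express, fell by 3.85 ± 0.85 (adjusted p = 0.0398, limma), but not past the threshold without replicate 1, 2 or 3 of 14 days (0.0543, 0.0711 and 0.071). Gfap, the astrocyte filament that rises in reactive glia, was lower in every sample of 14 days (9.94, 11.90, 12.38 and 11.21) than at 8 hours (13.32 and 13.59), and did not pass the test (-2.10 ± 0.63, adjusted p = 0.157, limma). The water channel gene Aqp4 overlapped between the groups (-0.47 ± 0.88, adjusted p = 0.839, limma). Without replicate 2 of 14 days 3 astrocyte genes were higher and 0 lower.

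Other genes among the largest rises were Vtn, Gng13, Nr2f2, Brinp3 and Gpc5. Vtn, the adhesion protein vitronectin, which brain pericytes make, measured 14.93, 16.21, 16.14 and 10.66 at 14 days against 6.31 and 6.53 at 8 hours (8.07 ± 1.71, adjusted p = 0.0315, limma). Gng13, a G protein gamma subunit of sensory and neuronal cells, measured 13.13, 16.14, 16.55 and 11.65 at 14 days against 7.01 and 7.13 at 8 hours (7.30 ± 1.48, adjusted p = 0.0256, limma). Both genes varied by several log2 units within 14 days, and neither was called without replicate 2 of that group (adjusted p = 0.0695 for Vtn and 0.0569 for Gng13, limma). Vtn was not called without replicate 3 either (adjusted p = 0.0586, limma). Nr2f2, the nuclear receptor COUP-TFII, measured 11.56, 13.05, 12.66 and 10.54 at 14 days against 6.43 and 6.60 at 8 hours (5.44 ± 0.72, adjusted p = 0.00175, limma). Brinp3, a neural protein known to slow the cell cycle, was at least 38.7-fold higher (adjusted p = 0.0109, limma), and Gpc5, a heparan sulfate proteoglycan of the cell surface, rose by 5.20 ± 0.94.

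**Figure D2:**
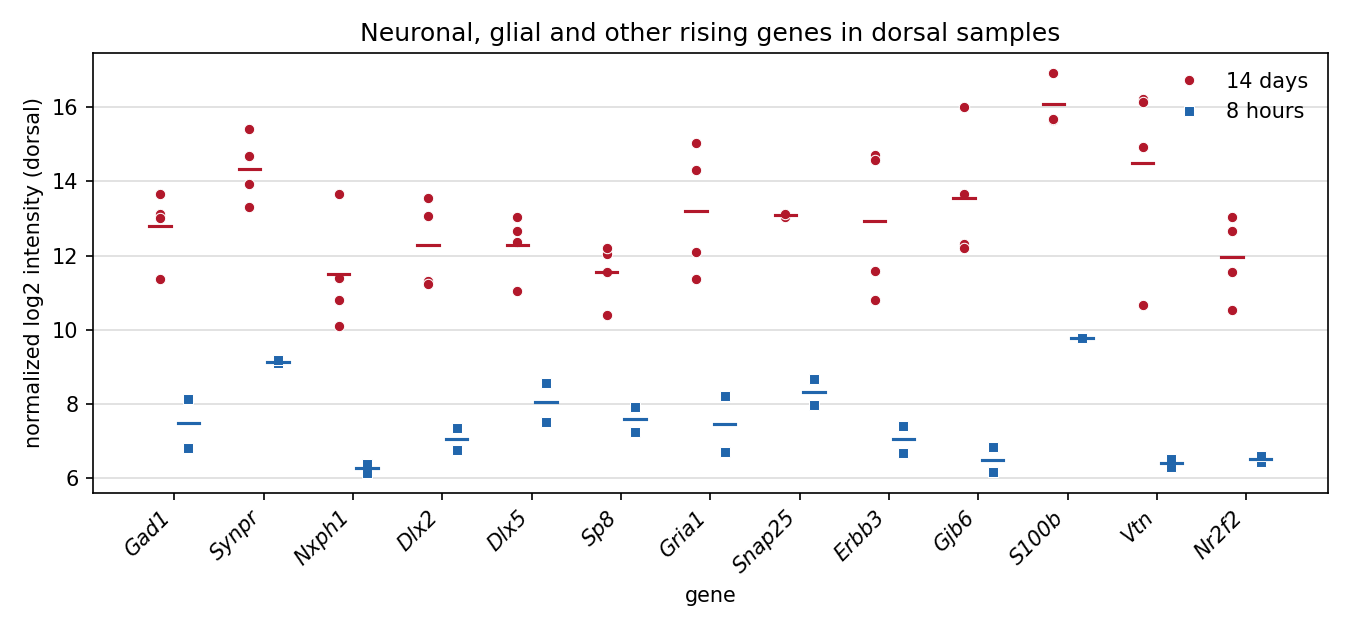
Normalized log2 intensity of 13 genes that rose, in each dorsal sample (red circles, samples of 14 days with an unflagged spot, at most 4; blue squares, 2 samples of 8 hours; bars, group means). The samples of 14 days lie above those of 8 hours in every gene shown, as in all 76 genes called higher. The widest spread is in Vtn, between 10.66 and 16.21.

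**Figure D3:**
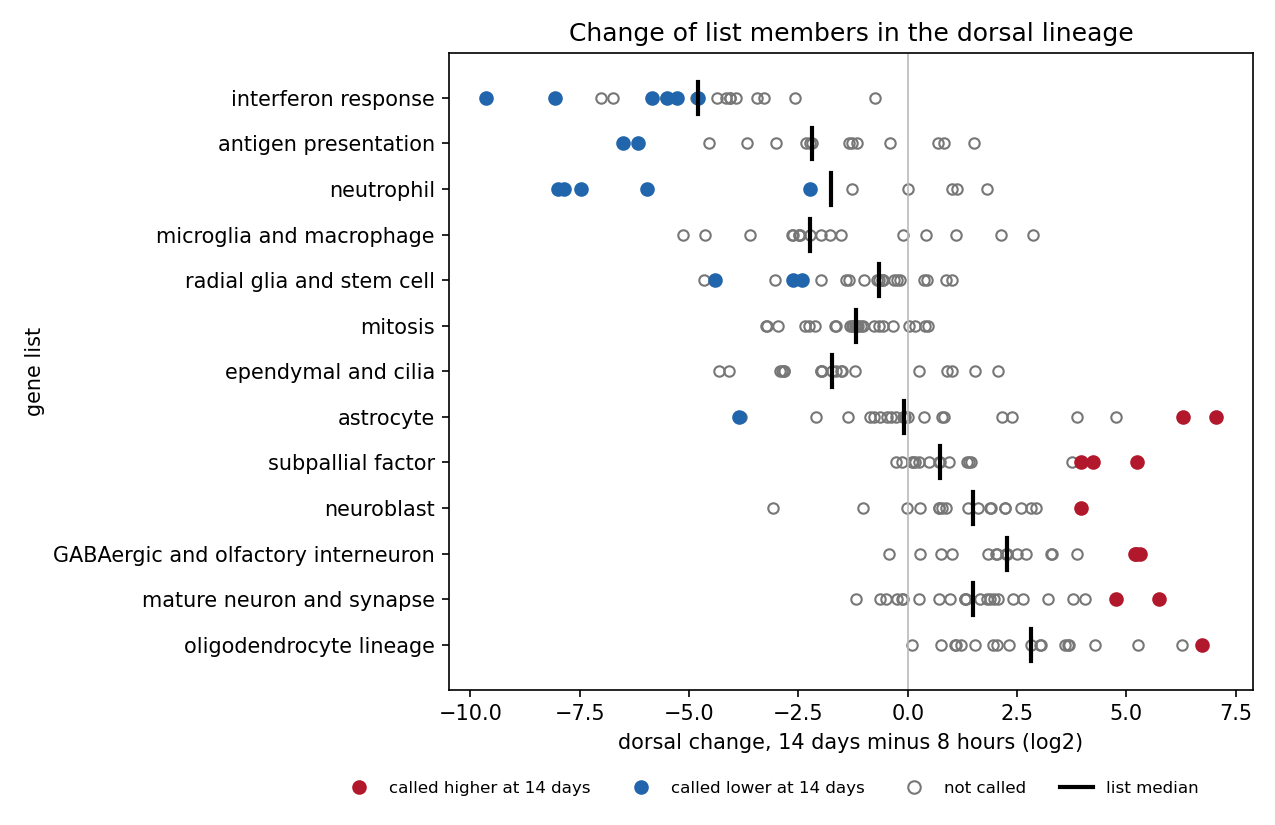
Dorsal change (log2, 14 days minus 8 hours) of every tested member of 13 gene lists, with members called higher in red, members called lower in blue, other members as open circles and list medians as black bars. The interferon response list lies furthest to the left, with a median of -4.80, and the oligodendrocyte list furthest to the right, with a median of 2.83.

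The times between were read for the named genes as a description, from means over the 2, 3, 2, 3, 3 and 4 samples of the 6 times in order. Retnlg was at 12.997 at 8 hours and at 6.59, 6.34, 6.41, 6.40 and 7.03 at 1, 2, 4, 7 and 14 days. Il1rn was at 14.13 at 8 hours and at 8.08, 7.01, 6.45, 7.45 and 6.12 at the later times. S100a9 passed through intermediate levels, at 14.54 at 8 hours and at 11.67, 8.03, 6.46, 6.24 and 6.55 thereafter, as did Csta1. These genes were thus low from 1 to 4 days on. Irf7 was at 15.11, 10.19, 12.15, 7.09, 8.30 and 7.03 at the 6 times. Mx2 was at 15.09 at 8 hours and still at 14.06 at 1 day.

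The genes that rose reached their high level at different times. Gad1 was at 7.47, 9.48, 7.71, 14.23, 13.79 and 12.79 from 8 hours to 14 days, and Dlx2 at 7.06, 10.19, 11.36, 14.04, 13.40 and 12.29. Both were highest at 4 days, and so were Dlx5 and Sp8, whose means at 14 days were lower than at 4 and 7 days. Erbb3 was at 7.05, 7.56, 6.91, 6.84, 9.88 and 12.92 and Nr2f2 at 6.51, 6.87, 6.88, 7.15, 8.99 and 11.95, so that their levels were high at 7 and 14 days. Gfap stood at 13.46 (8 hours), 6.74 (4 days) and 11.36 (14 days), so its lowest mean of these 3 lay between the end points.

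**Figure D4:**
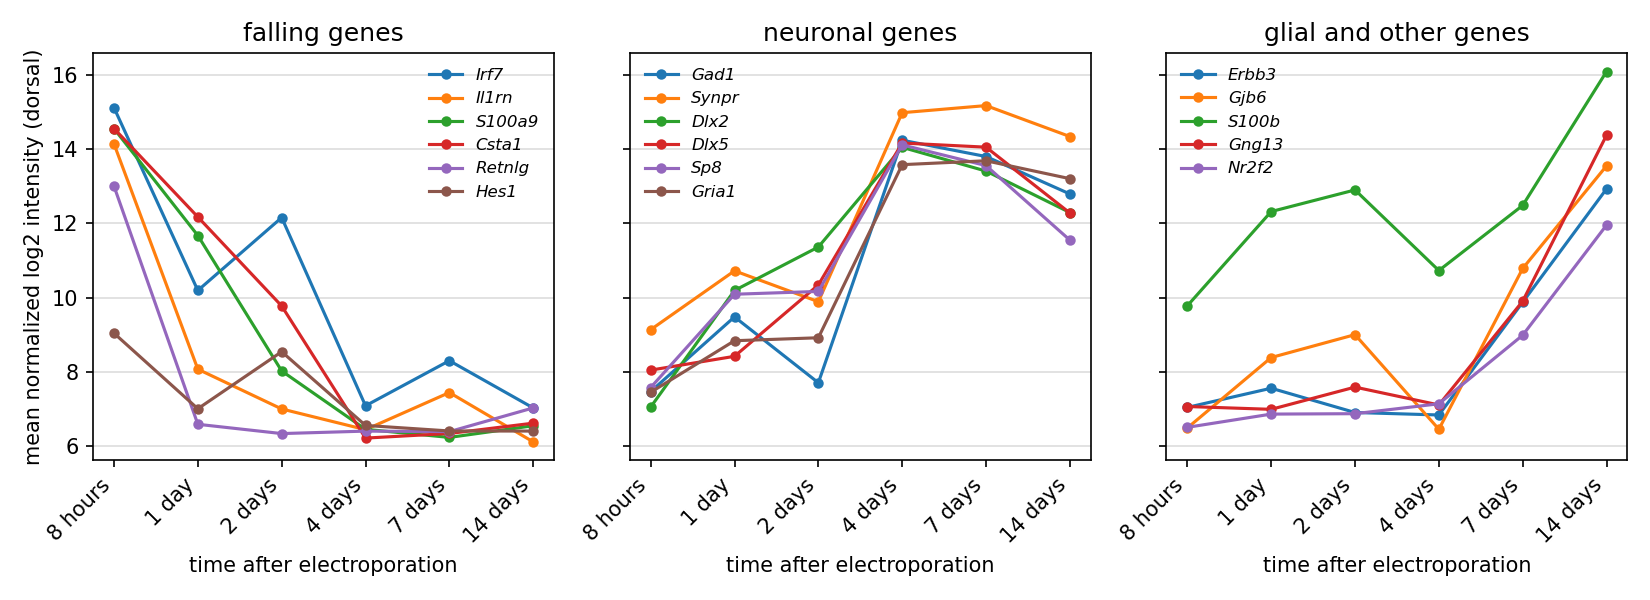
Mean normalized log2 intensity of 17 named genes in the dorsal samples at the 6 times (points, means of 2 to 4 samples; times evenly spaced, not to scale). Falling genes reach low levels by 4 days, the neuronal genes are highest at 4 or 7 days, and the glial and other genes are highest at 14 days.

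Each array also carried a lateral sample of the same time, which gave a test of whether the dorsal change differed from the lateral one. The difference was called for 46 genes (0.174%), of which 8 (0.0303%) had a dorsal change above the lateral one and 38 (0.144%) below it, and 1849 genes had an unadjusted p under 0.05. The count was 0 when only the 6 arrays of both times entered the fit and 0 with the authors' deposited value table, so that the 46 calls depend on the spread pooled over the other times and on the normalization. Of the genes that fell or rose in the dorsal samples, 22 were among the 46. In the lateral samples alone 572 genes (2.17%) were called between the 2 times. Of the 392 dorsal calls, 139 were also called in the lateral samples with the same sign. In the lateral samples 13 interferon response genes fell, against 6 in the dorsal ones, and 4 neutrophil genes, against 5. There 7 GABAergic and olfactory interneuron genes rose, against 3 in the dorsal ones, and 7 neuroblast genes, against 1. Of the genes above that fell, 3 examples were not among the 46: the difference for Irf7 was -1.04, that for S100a9 0.20 and that for Stfa2 -0.09, with lateral changes of -7.03, -8.19 and -7.94.

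Dlx2 rose more in the dorsal lineage (5.23 ± 0.71) than in the lateral one (2.23), a difference of 3.00 (adjusted p = 0.0132, limma). Dlx5 and Sp8 rose by 4.90 and 6.16 in the lateral samples, and their differences of -0.68 and -2.19 were not called. Dct, a melanin synthesis enzyme also expressed in cortical progenitors, measured 6.47, 6.13, 7.57 and 7.00 in dorsal samples of 14 days against 13.19 and 13.31 at 8 hours. Its dorsal change was -6.45 ± 0.56 and its lateral change -0.07, a difference of -6.38 (adjusted p = 0.0163, limma). Dct was well above background in 1 of 4 dorsal samples of 14 days. Lateral detection was not examined, so a lateral change near 0 cannot tell a steady level from one at the background. Dmrta2, a patterning factor of the cortex, measured 11.03, 8.70, 8.79 and 7.35 in dorsal samples of 14 days against 11.98 and 11.67 at 8 hours. Its dorsal change of -2.86 did not pass the test on its own, its lateral change was 2.32, and the difference was -5.17 (adjusted p = 0.0212, limma). Dysf, a membrane repair protein (-4.58), and Prrx2, a homeobox factor of mesenchyme (-4.41), also had a dorsal change below the lateral one. Cyp4b1, a cytochrome P450 enzyme, was not well above background in any dorsal sample of 14 days. Its dorsal fall is therefore a bound (at least 13.0-fold lower), and its fitted wall difference (-4.43) rests on levels at the background. Leaving out 1 of the 6 samples ended the call of the wall difference for Dlx2 and Lgals1 (replicate 1 of 8 hours), Dct and Dmrta2 (either sample of 8 hours), Prrx2 (either sample of 8 hours, or replicate 3 or 4 of 14 days), Gata2 (replicate 1 of 8 hours, or replicate 1, 2 or 4 of 14 days) and Dysf (any of the 6). Adgrf5 (3.22), Gata2 (2.85), Tnfsf4 (2.57) and Lgals1 (2.39) had dorsal changes within 0.1 of 0 and lateral changes of -3.17, -2.78, -2.66 and -2.40. Adgrf5 was well above background in 0 of 4 dorsal samples of 14 days and 1 of 2 of 8 hours, Tnfsf4 in 1 of 4 and 1 of 2, and Gata2 in 1 of 4 and 2 of 2, so their dorsal changes near 0 and their wall differences were read at or close to the background. Lgals1 was well above background in all 6. The signs of these 4 small dorsal changes turned under some scalings and without some samples, as given under the dependence on processing.

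**Figure D5:**
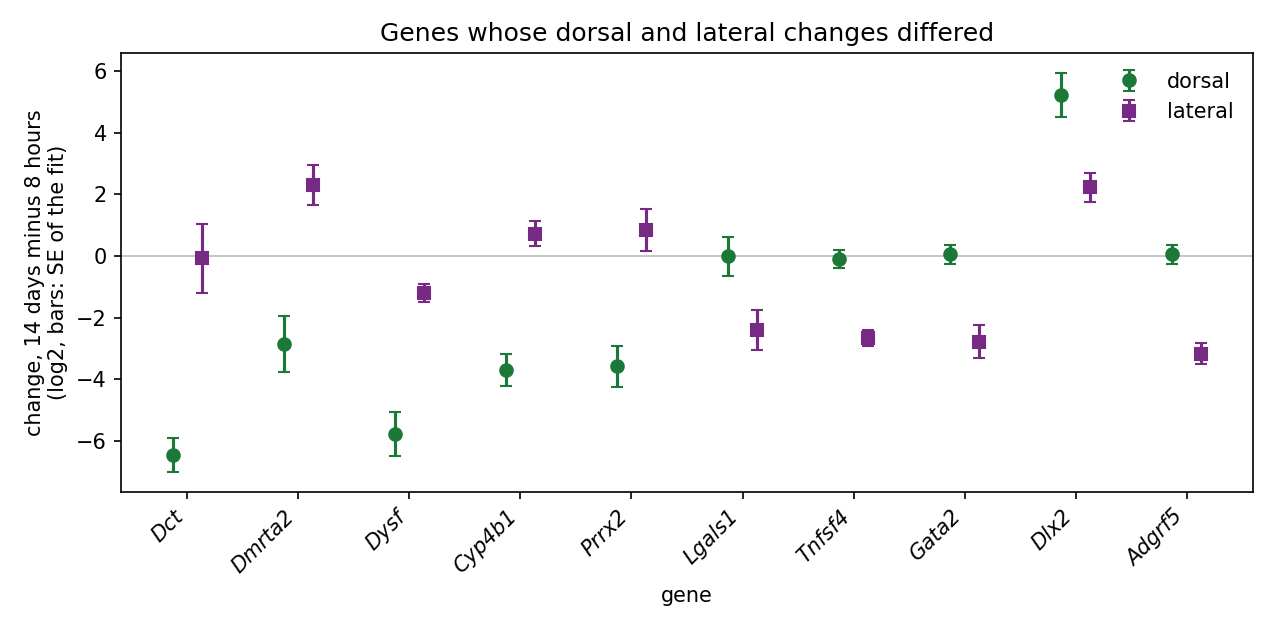
Change (log2, 14 days minus 8 hours) in the dorsal lineage (green circles) and the lateral lineage (purple squares) for the 10 named genes whose changes differed between the walls, with the SE of the fit as bars. Dct, Dysf, Cyp4b1 (a bound) and Prrx2 fell in the dorsal samples, Adgrf5, Tnfsf4 and Gata2 were at or close to the background in them, and Dlx2 rose more in them than in the lateral ones.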

How the data were processed

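Dorsal (Cy3) and lateral (Cy5) cDNA was hybridised together on 17 Agilent arrays, never dye-swapped. Per the labels' protocols, bead-isolated mRNA was amplified by an undisclosed global PCR service and 200 ng labelled. Amplification can widen the spread of rare transcripts, and its effect was not tested. Spot intensity was extracted by the authors, per the file headers, with Feature Extraction (Agilent) version 10.5.1.1 on some arrays and 10.7.3.1 on others, which served all 6 compared here. The values deposited for the whole series were log2 of Cy3 over Cy5: they correlated at -0.971 to -0.903 with the scanner's log10 ratio (red over green, per the file headers), with slopes of -3.3 to -3.24 on bright probes, where log2 values give -3.32, and column medians of -0.164 to 0.0459. Their normalization is stated neither in the labels nor in the headers. They served only as an alternative.

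Mean signals were background-corrected by normexp (offset 50), loess-normalized within arrays with controls at weight 0, and Aquantile-normalized between arrays. Outlier-flagged spots were set to missing (0.438 to 2.61% in the 6 arrays). No spot was saturated in the dorsal channel, and saturation in the lateral channel was not counted. A probe was kept if at least 2 arrays had it well above background in 1 of the channels, and the brightest probe stood for a gene. Probes were named through RefSeq accessions (26876) or symbols (3241) of GRCm38.p6, and 11057 kept the file's name. limma 3.58.1 (lmFit, eBayes; R 4.3.3, data.table (1.17.8)) was fitted with 1 mean per time to all 17 arrays, so that 14 days (n = 4) and 8 hours (n = 2) shared the pooled spread. Tests were two-sided, Benjamini-Hochberg adjusted, with a threshold of 0.05. Where a gene was above background in no sample of a group, the fold is a bound: the brighter group's mean against the higher, per array, of the probe's signal and the lowest signal of any probe well above background. The fit was tested on simulated normal noise with 1 spread per gene at all times. That setting does not cover a spread that differs between 14 days and 8 hours, as it did here.

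Genes named were the 12 largest rises and falls past the threshold with groups that did not overlap, up to 4 called members per list and direction, 16 defining markers, and the 5 largest wall differences of either sign, and some genes this rule chose are not reported here. Other members and the symbol families were chosen after their values were seen. Members and lists were chosen with earlier results of these data known. Alternatives covered scaling, filters, probe choice, arrays left out, weights and blocks. Figures used matplotlib 3.10.9 under Python 3.11.15.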

Additional observations from a re-analysis of the deposited data

Results flagged for a closer look

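Among the 61 named genes measured in all 4 dorsal samples of 14 days, 3 had 1 sample far from the other 3 by Dixon's ratio of the gap to the range, and chance alone flags about 1 group in 20. Cxcl10 in replicate 3 stood at 12.78 against 6.26 to 7.14 in the others (ratio 0.865). Retnlg stood at 7.79 in replicate 2 against 6.67 to 6.85 (ratio 0.844), and Cyp4b1 in replicate 2 at 7.88 against 6.21 to 6.36 (ratio 0.906).

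The dorsal change differed from the lateral one, by the test of the difference itself, for 10 named genes. The difference was positive for Adgrf5 (3.22), Dlx2 (3.00), Gata2 (2.85), Tnfsf4 (2.57) and Lgals1 (2.39). It was negative for Dct (-6.38), Dmrta2 (-5.17), Dysf (-4.58), Cyp4b1 (-4.43) and Prrx2 (-4.41). Of the 10, 0 kept the call in every alternative run, 7 lost it without replicate 1 of 8 hours, 4 without replicate 2 of 8 hours and 2 or 3 without 1 of the samples of 14 days.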

How the results depend on the processing

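The count of genes called between 14 days and 8 hours, 392, was 344 to 466 under the other filters, probe averaging, an intensity trend, the Feature Extraction version as a block, and the loess-free or quantile scalings. It was 96 with the scanner's processed signal, 258 with the 6 arrays alone and 258 within the scan day of both times (the other arrays of that day are single samples of their time), 1499 with array weights, 3720 with slide as a random block (consensus correlation -0.22), and 608 without both arrays that stand apart, an alternative chosen after seeing the data. Leaving out 1 of the 6 samples gave 76 to 607 calls. In the 2 lowest a single sample stood for 8 hours and was assumed to vary like the other times. Without replicate 1 of 1 day 540 genes were called. The processed signal put the median change of all genes at 0.45, against 0.14 otherwise reported. Of the calls 19.4% were higher, 4.65% with the 6 arrays alone, 38.8% with array weights, 47.7% with slide as a random block and 30.8% without both arrays that stand apart. Replicate numbers follow the order of the samples within a time and not the letters in their titles, from which they differ at 1 day and 14 days. The replicate block therefore does not match samples by letter. The replicate numbers did not pair the samples (correlations of deviations from -0.00989 to 0.0099), and the replicate block gave 371 and, for the wall difference, 10 calls.

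For the wall difference, 46 calls became 9 with median centring, 16 with quantile normalization of both channels, 5 with the processed signal, 13 with the stricter filter, 0 with the 6 arrays alone, 0 within the scan day, 0 with the deposited value table, 114 with array weights, 342 with slide as a random block, 25 with the version block and 25 without both arrays that stand apart. Leaving out 1 of the 6 samples gave 34 to 127. The wall difference was called for 67 genes without a filter, 60 with probes averaged, 31 with an intensity trend and 59 without replicate 1 of 1 day. With the 6 arrays alone 1900 genes, and 1712 with the deposited values, had an unadjusted p under 0.05. The share of calls above the lateral change was 17.4%, 44.4% with median centring and 31.2% with both channels quantile-normalized.

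Of 50 named genes called in the dorsal lineage, 11 kept the call in every alternative run (Csta1, Cstdc4, Dct, Dysf, Ptges, Retnlg, S100a9, S100b, Stfa1, Stfa2 and Tnfrsf12a). The processed signal lost 23 of the 50, the 6 arrays alone 27, leaving out replicate 1 of 8 hours 36 (of 49 measured) and replicate 2 of 8 hours 32. Of the called named rises, only Synpr and S100b kept the call with the 6 arrays alone. None of the 50 changed sign. Signs turned only for genes not called. With the dorsal channel alone Fabp7 was at 0.26, Cx3cr1 at 0.16, Adgrf5 at -0.0387, Tnfsf4 at 0.0149 and Lgals1 at 0.16. With both channels quantile-normalized they were at 0.19, 0.15, -0.0365, 0.0038 and 0.24. With median centring Hbb-bt was at 0.0553, Tnfsf4 at 0.15 and Lgals1 at 0.011. With the processed signal Hbb-bt was at 3.56, Adgrf5 at -0.17, Gata2 at -0.45 and Lgals1 at 0.66. Gata2 was at -0.0031 with probes averaged. With the replicate block Cx3cr1 was at 0.63, Hbb-bt at 0.11 and Lgals1 at 0.55. With slide as a random block Hbb-bt was at 0.0075 and Lgals1 at 0.24, and without both arrays that stand apart Lgals1 was at 0.25. With 1 sample left out, the changes ran from -1.09 to 0.81 in Cx3cr1, -0.37 to 0.30 in Hbb-bt, -0.38 to 0.49 in Adgrf5, -0.0194 to 0.19 in Gata2, -0.35 to 0.16 in Tnfsf4 and -0.58 to 0.38 in Lgals1. The cause of these changes was not tested. Signal over background at 14 days limits 113 of the falls to a bound.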
